A study of Mus musculus with 8 samples.

Results

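Chaperones bind unfolded or partly folded proteins and help them reach or keep their shape. HSP70 proteins work in cycles of ATP hydrolysis started by J-domain proteins and reset by nucleotide exchange factors, HSP90 completes the folding of kinases and receptors, and the ring-shaped chaperonin TRiC encloses actin and tubulin. Heat shock factor 1, encoded by Hsf1, switches on the inducible part of this network when unfolded proteins accumulate, and T cells raise chaperone transcripts on activation as well as on heat. Genes of this network were compared here between iNKT cells of skin and of spleen, which are T cells that recognise lipids bound to CD1d.

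The genes were chosen by a rule on symbols, set with earlier results of these data known. It took all Hspa, Hspb, Hspd, Hspe, Hsph, Hsp90, Dnaja, Dnajb, Dnajc and Cct genes, with Tcp1, Bag3, Chordc1, Cacybp, Stip1 and Hsf1. Left out were 5 genes of the endoplasmic reticulum stress response (Hspa5, Hsp90b1, Dnajb9, Dnajb11 and Dnajc3). This rule matched 84 rows, of which 19 had no count in any library, and left 65 members among the 11440 genes with a count. The working name of the set is cytosolic chaperones and heat shock genes. By known location it is broader, since Hspa9, Hspd1, Hspe1, Dnaja3, Dnajc11, Dnajc15, Dnajc19 and Dnajc30 act in mitochondria. Members of the endoplasmic reticulum or its membrane include Dnajc1, Dnajc10, Dnajc14 and Hspa13. Of the 65 members, 50 passed the filter on low counts and were tested.

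The tested cells were skin iNKT cells (4 libraries) and the cells they were set against were spleen iNKT cells (4 libraries), all from mice of genotype CCR10+/EGFP. Both tissues thus carry 1 EGFP allele at Ccr10, and the labels name no treatment, age, sorting gate or pooling of animals. The libraries are numbered 1 to 4 in each tissue without a statement that they are separate animals, so the p-values rest on library-to-library spread alone, and that spread may be technical. Levels are CPM, counts relative to the TMM-scaled library size, not divided by gene length, and fold changes are skin over spleen.

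Total expected counts were 7191131 to 9791973 per library. Fewer genes had a count in skin libraries (5309 to 6018) than in spleen libraries (6429 to 10106). Defining T cell markers were present in both tissues: 8 matched genes of 10 listed summed to 3400 to 4500 CPM in skin and 4730 to 6840 CPM in spleen. All skin sums thus lay below all spleen sums. Keratinocyte markers summed to 273 to 1070 CPM in skin and 0 to 29.5 CPM in spleen, with 9 of 12 genes counted in any skin library and Dsp and Trp63 at 0 in all libraries. Fibroblast markers summed to 0 to 168 CPM in skin and 0 CPM in spleen. B cell markers summed to 0 CPM in skin and 31.5 to 166 CPM in spleen, and erythroid markers to 0 to 0.424 CPM in skin and 111 to 228 CPM in spleen. Myeloid markers summed to 16.3 to 291 CPM in skin and 40.6 to 195 CPM in spleen, endothelial markers to 0 to 77.0 and 0 to 57.4 CPM, melanocyte markers to 0 and 0 to 68.6 CPM and neutrophil markers to 0 and 0 to 23.3 CPM. Mast cell markers were at 0 in all libraries. Of all these markers, the T cell gene Cd3d, the keratinocyte gene Perp and the erythroid gene Hba-a1 were called between the tissues by edgeR. Summed over 14 immediate early genes, which respond within minutes to a stimulus or to handling, skin libraries 1 to 4 held 11550, 12790, 22590 and 17200 CPM. The same sum was 1044, 1691, 1144 and 10040 CPM in spleen libraries 1 to 4, so spleen replicate 4 stood apart from the other spleen libraries. The part of these other signals in the chaperone results was not tested, and skin and spleen cannot be told apart from any difference in how cells were freed from the tissues.

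Heat shock factors bind inverted repeats of the unit GAA, and the promoters of members were searched for them because Hsf1 is the regulator the network is known for. The windows run from 250 bases before to 50 after each start, from RefSeq on GRCm38.p6, and 52 of the 65 members had one. An element of 3 such units in alternating orientation (the canonical 3-unit heat shock element with an exact match in every unit, searched on both strands) lay in the windows of 5 of these 52 members (9.62%), against 0.662% of all 27025 genes with a window. These were Dnajb6, Hsph1, Chordc1, Hspd1 and Hspe1, and the last pair share one element because their windows overlap on opposite strands. A looser search for 2 units, GAANNTTC or TTCNNGAA (each its own reverse complement, and each part of the longer element), found 18 members (34.6%) against 17.0% of all genes. Among them were Dnaja1 (in 1 of its 3 windows), Hspa1a, Hspa1b, Hspb1 and Bag3. Members with a window but neither element included Dnajb1, Stip1, Cacybp and Hspa4l. Of the 6 members higher in skin, Dnaja1, Dnajb6 and Hspa4 had a window, and that of Hspa4 held neither element. The stretches below show, in capitals, the 3-unit element of Dnajb6 and the 2-unit element of Dnaja1, both higher in skin, and the elements of 4 members that were not called. They are given 5′ to 3′ on the gene's strand.
Dnajb6 (chr5:29735813-29735902, plus strand): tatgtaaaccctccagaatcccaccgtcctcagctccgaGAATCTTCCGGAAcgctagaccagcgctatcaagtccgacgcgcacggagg
Dnaja1 (chr4:40722303-40722392, plus strand): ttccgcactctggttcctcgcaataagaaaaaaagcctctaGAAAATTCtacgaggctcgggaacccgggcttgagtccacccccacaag
Hspa1b (chr17:34959294-34959383, minus strand): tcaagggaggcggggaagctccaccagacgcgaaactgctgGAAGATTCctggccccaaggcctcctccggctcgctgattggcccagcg
Hsph1 (chr5:149636287-149636376, minus strand): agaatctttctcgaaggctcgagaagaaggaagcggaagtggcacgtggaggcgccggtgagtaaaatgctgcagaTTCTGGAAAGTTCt
Chordc1 (chr9:18292227-18292316, plus strand): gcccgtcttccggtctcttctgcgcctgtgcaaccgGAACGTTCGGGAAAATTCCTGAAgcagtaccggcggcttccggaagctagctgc
Hspd1 (chr1:55088023-55088112, minus strand): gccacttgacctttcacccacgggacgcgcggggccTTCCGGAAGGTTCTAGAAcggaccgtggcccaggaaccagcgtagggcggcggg
In Chordc1 and Hspd1 the capitals cover overlapping 3-unit matches that run together. Where a 3-unit element is marked, 2-unit matches elsewhere in the stretch are left in lower case, as in Hsph1 and Chordc1. A match describes these letters and no binding was measured.

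Skin iNKT cells held more transcript of both cytosolic HSP90 genes, of the constitutive HSP70 gene Hspa8 and the exchange factor gene Hspa4, and of the J-domain genes Dnaja1 and Dnajb6. They had no count for the J-domain genes Dnajc24 and Dnajc30, which were low in spleen. In edgeR's quasi-likelihood test with Benjamini-Hochberg adjustment over all 6920 genes tested, 6 of the 50 tested members were higher in skin (12.0%), against 1.85% of all genes tested. Lower in skin were 2 of the 50 (4.0%), against 3.58% of all genes tested, and 42 did not pass; in either direction 5.43% of all genes tested were called. Since a gene can pass the filter through the tissue where it is high, the 25 members with a count in all 8 libraries were also counted: 6 were higher (24.0%, against 4.91% of the 2241 such genes) and 0 lower (against 2.1%). At an unadjusted p under 0.05, 9 of the 25 were higher and 0 lower, against 13.0% and 8.57% of such genes. The median log2 fold change of the 25 was 0.46, beside 0.03 over all genes with a count in all 8 libraries. In 8 of these 25 every skin library lay above every spleen library (32.0%, against 11.3%). DESeq2 called 8 of the 50 members higher and 2 lower, against 4.26% and 6.46% of all genes tested. Limma-voom called 9 higher and 2 lower, against 2.99% and 7.23%. Without the filter edgeR called 5 of 65 higher and 0 lower, against 0.849% and 0.42%. Together the 65 members took 1.61% to 2.11% of the counts in skin libraries and 0.944% to 1.07% in spleen libraries. In these bulk libraries, fewer expressing cells and less RNA per cell cannot be told apart.

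**Figure D1:**
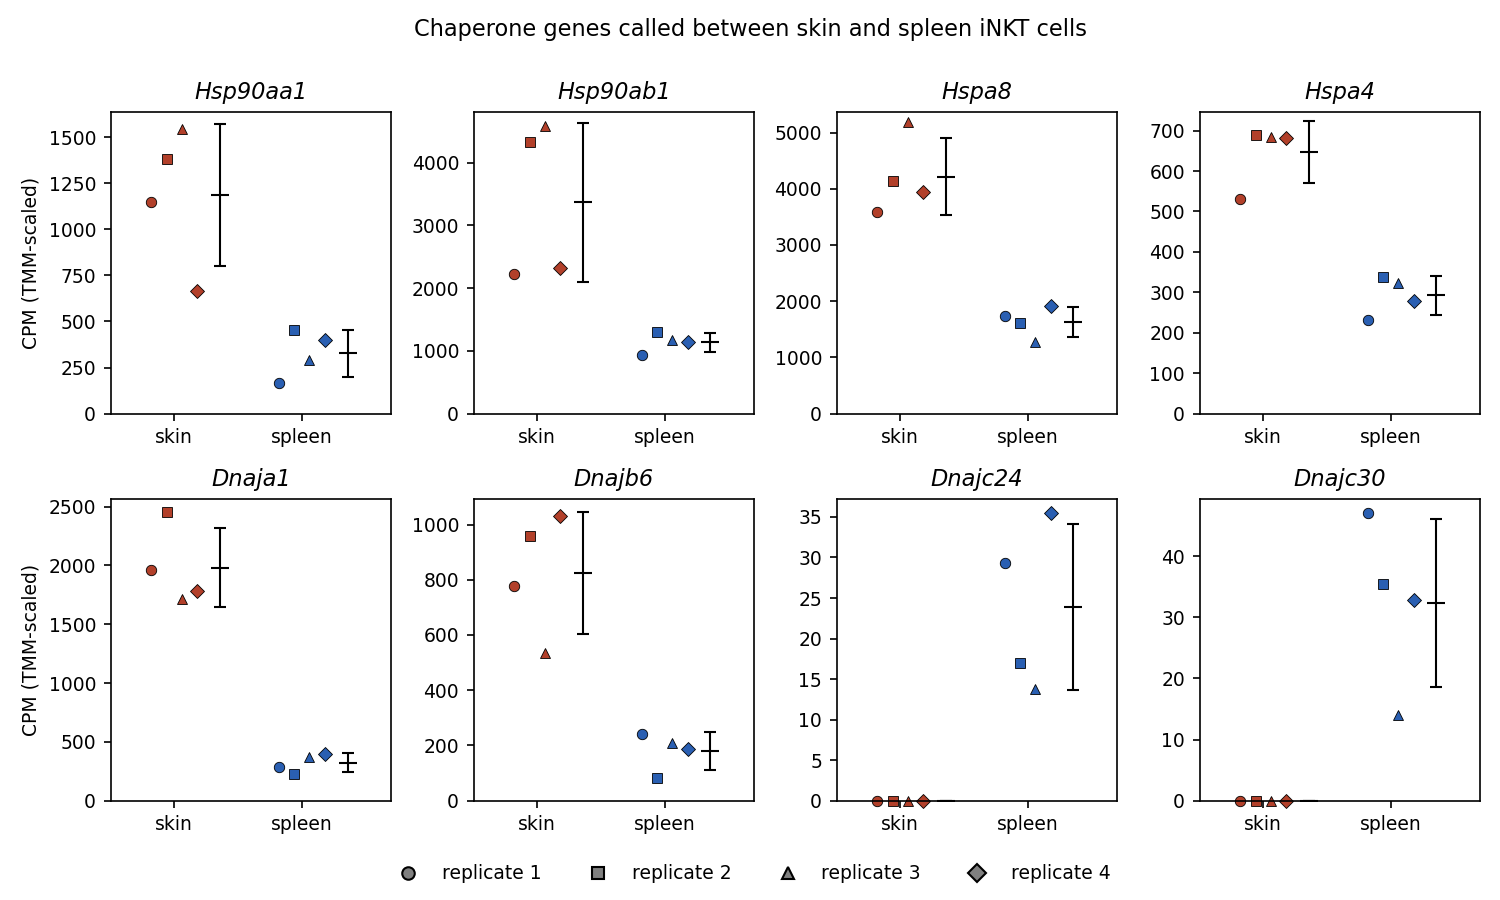
CPM of the 8 chaperone genes called between skin (red) and spleen (blue) iNKT cells, 1 marker shape per replicate number, with the mean and SD (n = 4 each) in black beside the points. All skin points lie above all spleen points for Hsp90aa1, Hsp90ab1, Hspa8, Hspa4, Dnaja1 and Dnajb6, and at 0 for Dnajc24 and Dnajc30.

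HSP90 is encoded in the cytosol by the stress-inducible Hsp90aa1 and the constitutive Hsp90ab1, and both were higher in skin. Hsp90aa1 stood at 1148, 1382, 1546 and 667 CPM in skin libraries 1 to 4, against 164, 451, 292 and 399 CPM in spleen libraries 1 to 4. The groups did not overlap, although skin replicate 4 lay well below the other skin libraries. Its mean was 1186 ± 382 CPM in skin and 326 ± 127 CPM in spleen (SD, n = 4 each), a 3.63-fold difference (log2 fold change 1.86, SE 0.375; edgeR adjusted p = 0.0423). Hsp90ab1 stood at 2229, 4335, 4582 and 2329 CPM in skin, against 940, 1301, 1179 and 1141 CPM in spleen. Skin replicates 2 and 3 were nearly alike and high, skin replicates 1 and 4 nearly alike and lower, and all lay above the spleen libraries. The fold was 2.95 (log2 fold change 1.56, SE 0.268; edgeR adjusted p = 0.0229). Hsp90aa1 made up 22.3% to 34.0% of the counts of the pair in skin and 14.8% to 25.9% in spleen, ranges that overlapped.

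HSP70 proteins and the related HSP110 proteins, which act as their exchange factors, numbered 10 members, of which 8 were tested. Of these 8, 2 were higher and 0 lower, against 1.85% and 3.58% of all genes tested. Hspa8, the constitutive HSP70 that also strips clathrin from vesicles, stood at 3587, 4134, 5179 and 3941 CPM in skin, against 1737, 1608, 1278 and 1912 CPM in spleen. Even the lowest skin library held more than any spleen library. The fold was 2.58 (log2 fold change 1.37, SE 0.168; edgeR adjusted p = 0.00468). Hspa4, an HSP110 exchange factor, stood at 531, 688, 684 and 681 CPM in skin, against 232, 338, 322 and 278 CPM in spleen. Its skin libraries 2 to 4 were close together, and no skin value reached down to the spleen values. The fold was 2.21 (log2 fold change 1.14, SE 0.231; edgeR adjusted p = 0.0411).

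The other 6 tested genes of this class were not called, and their intervals of 2 SE were wide. With the 2 called, all 8 had a log2 fold change above 0 (median 1.99), beside 42.2% of all genes tested. Hspa14, which works at the ribosome with the J-domain protein Dnajc2, stood at 497, 424, 262 and 75.8 CPM in skin, against 156, 70.8, 75.5 and 111 CPM in spleen (log2 fold change 1.61, 2 SE interval 0.38 to 2.84; edgeR adjusted p = 0.266). Skin replicate 4 lay within the spleen range and the other skin libraries above it. Hspa9, the mitochondrial HSP70, stood at 551, 436, 467 and 196 CPM in skin, against 332, 75.6, 139 and 235 CPM in spleen. The same skin library lay among the spleen values (log2 fold change 1.08, 2 SE interval 0.05 to 2.11, edgeR adjusted p = 0.482). Hspa4l, a second HSP110 gene, stood at 112, 115, 85.4 and 8.90 CPM in skin, against 0, 0, 50.2 and 11.9 CPM in spleen. Hspa13 stood at 189, 208, 0 and 45.8 CPM in skin, against 61.9, 0, 14.5 and 0.149 CPM in spleen. The tissues overlapped for both, and neither passed the test (edgeR adjusted p = 0.989 and 0.995). Skin replicate 4 was the lowest skin library for Hspa14, Hspa9 and Hspa4l but not for Hspa13.

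The inducible genes of the class overlapped between the tissues. Hspa1b, an inducible HSP70 gene, stood at 32.2, 40.6, 427 and 189 CPM in skin, against 0, 23.8, 0 and 43.9 CPM in spleen (log2 fold change 3.35, 2 SE interval -1.07 to 7.76; edgeR adjusted p = 0.78). Its near-identical neighbour Hspa1a had counts in too few libraries to be tested, at 0, 0, 85.9 and 160 CPM in skin and 0, 0, 0 and 40.0 CPM in spleen. Because reads of this pair cannot be assigned with certainty, their sum is given too: 32.2, 40.6, 513 and 349 CPM in skin, against 0, 23.8, 0 and 83.8 CPM in spleen. The sum was highest in skin replicates 3 and 4, the skin libraries with most immediate early transcript, and within spleen it was highest in replicate 4, the spleen library with most. Hsph1, the inducible HSP110, stood at 82.5, 0, 132 and 71.0 CPM in skin, against 0, 0, 6.70 and 25.4 CPM in spleen (log2 fold change 3.15, 2 SE interval -2.34 to 8.64; edgeR adjusted p = 0.942). Its values too were highest in skin replicate 3 within skin and in replicate 4 within spleen, and 1 skin library had no count. Other inducible genes did not all follow this order. Dnajb1 and Hsp90aa1 were lowest within skin in replicate 4, at 262 and 667 CPM. Yet Hsp90aa1 was highest in skin replicate 3 (1546 CPM), and Dnajb1 within spleen in replicate 4 (131 CPM). A link of these genes to the immediate early sum was not tested.

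J-domain proteins, which bring substrates to HSP70 and start its ATP hydrolysis, formed the largest class, with 32 members and 25 tested. Dnaja1, a partner of Hspa8 in the cytosol, stood at 1963, 2457, 1713 and 1785 CPM in skin, against 287, 225, 375 and 400 CPM in spleen. Among tested members the ratio of the lowest skin to the highest spleen library was largest for Dnaja1, and the fold was 6.15 (log2 fold change 2.62, SE 0.234; edgeR adjusted p = 0.00128). Dnajb6, a suppressor of protein aggregation, stood at 777, 958, 533 and 1030 CPM in skin, against 240, 82.1, 210 and 186 CPM in spleen. The tissues did not overlap, and the fold was 4.60 (log2 fold change 2.20, SE 0.380; edgeR adjusted p = 0.0238). Dnajb1, the classical inducible HSP40, stood at 309, 629, 600 and 262 CPM in skin, against 7.70, 31.8, 80.0 and 131 CPM in spleen. Although all skin values lay above all spleen values, it was not called (log2 fold change 2.84, 2 SE interval 1.22 to 4.46; edgeR adjusted p = 0.091). DESeq2 called it (adjusted p = 0.00208), as did limma-voom (adjusted p = 0.042). Dnaja2, a close relative of Dnaja1, stood at 630, 972, 586 and 351 CPM in skin, against 191, 269, 288 and 299 CPM in spleen. It did not overlap and was not called either (log2 fold change 1.28; edgeR adjusted p = 0.0659), while DESeq2 called it (adjusted p = 0.00497), as did limma-voom (adjusted p = 0.0484) and edgeR with RLE scaling (adjusted p = 0.0472). Dnajc5, the cysteine string protein of secretory vesicles, stood at 123, 417, 144 and 289 CPM in skin, against 0, 18.0, 47.6 and 120 CPM in spleen, a gap of a few CPM between the tissues (edgeR adjusted p = 0.758). Of the tested members, 9 had every skin library above every spleen library (18.0%, against 6.11% of all genes tested). The 9 were the 6 called genes with Dnajb1, Dnaja2 and Dnajc5.

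**Figure D2:**
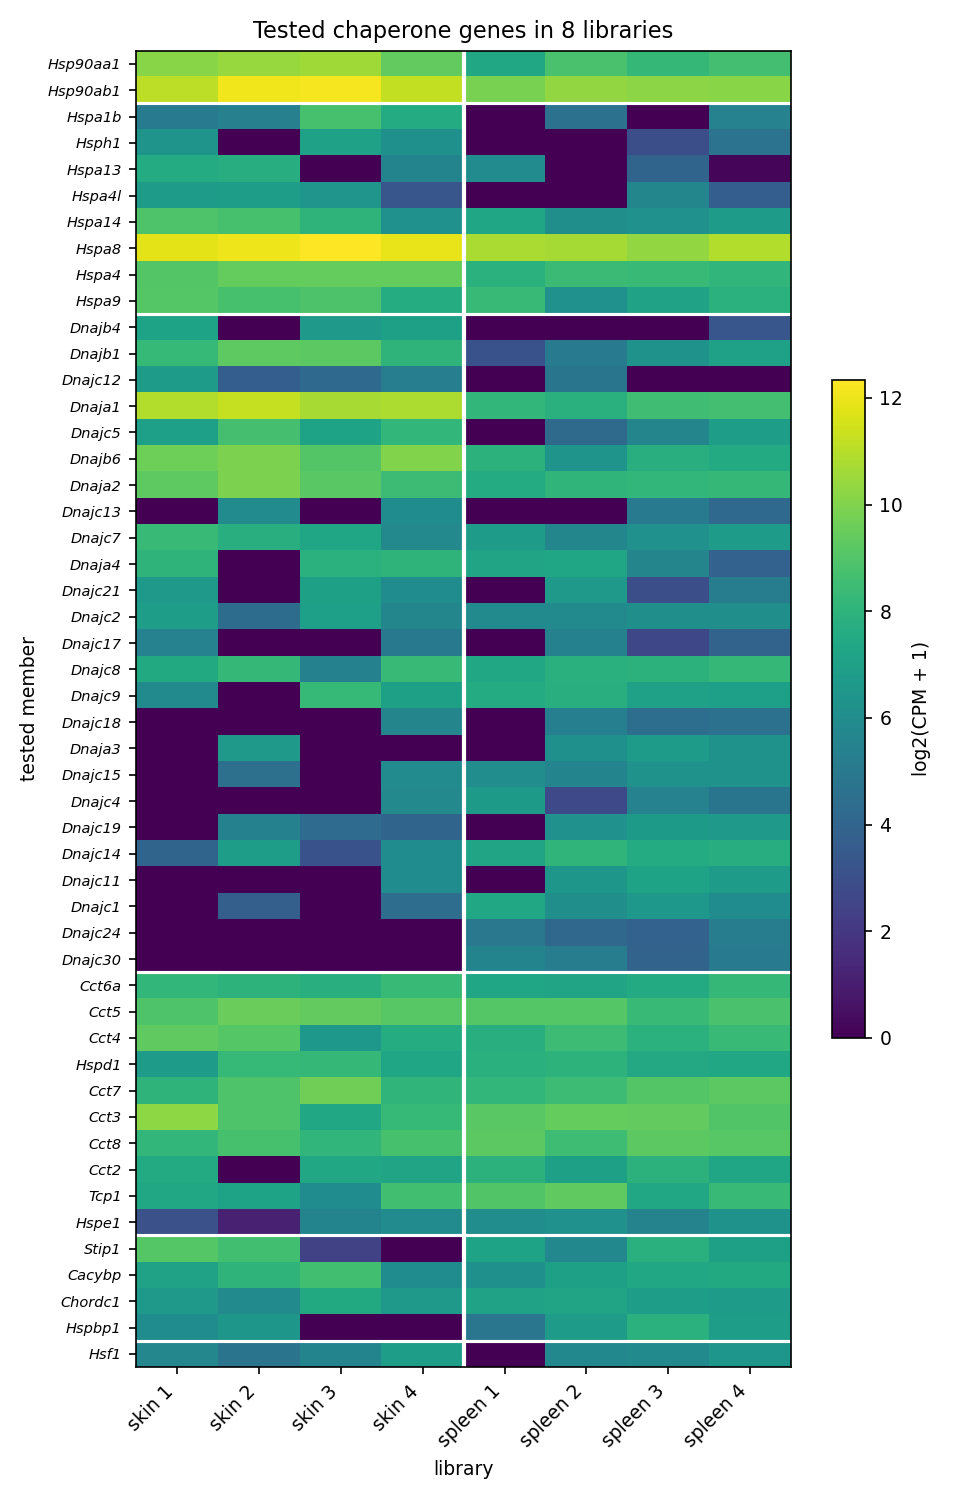
Log2(CPM + 1) of the 50 tested members (rows, by class and then by fold change; white lines part the classes) in the 4 skin and 4 spleen libraries (columns). Dark cells are values at or near 0, which lie mostly among J-domain genes, while the HSP90 rows, Hspa8 and Dnaja1 are bright in all skin libraries.

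A pair of J-domain genes with roles outside general folding were called lower in skin. Dnajc30, a mitochondrial protein tied to the respiratory chain, had no count in skin and stood at 47.1, 35.5, 14 and 32.9 CPM in spleen. Dnajc24, which takes part in making the diphthamide residue of elongation factor 2, had no count in skin and stood at 29.3, 17.0, 13.8 and 35.5 CPM in spleen. Against a floor of 3 counts per library, they were at least 83.6-fold and at least 61.7-fold lower in counts in skin (edgeR adjusted p = 0.0473 each). These bounds cover counting error only: at such levels a skin library often reads 0, since 41.2% of the skin values were 0 among genes whose other skin libraries averaged 20 to 35 CPM. Both calls were lost in each of the 8 fits without 1 library. Their adjusted p lay just under the threshold, as it did for many calls: 253 genes had an edgeR adjusted p of 0.04 to 0.05. Dnajc14 and Dnajc1, both of the endoplasmic reticulum membrane, had every skin library below every spleen library and were not called. Dnajc14 stood at 14.7, 121, 7.72 and 63.4 CPM in skin, against 148, 270, 191 and 206 CPM in spleen (log2 fold change -1.98; edgeR adjusted p = 0.49). Dnajc1 stood at 0, 12.2, 0 and 20.1 CPM in skin, against 169, 70.4, 93.2 and 63.9 CPM in spleen (log2 fold change -3.62; edgeR adjusted p = 0.721). With these, 4 tested members lay wholly below spleen (8.0%, against 13.4% of all genes tested). Dnajc8, a protein that associates with the splicing machinery, stood at 179, 297, 41.2 and 326 CPM in skin, against 160, 228, 243 and 295 CPM in spleen, with overlapping tissues. The remaining 15 tested J-domain genes were not called by edgeR and overlapped, with log2 fold changes from -2.45 (Dnajc11) to 5.36 (Dnajb4), 8 above 0 and 7 below. None of the 15 exceeded 313 CPM in any library, and 13 had at least 1 library at 0. One of them, Dnajc12, was called higher by limma-voom alone of the tools run (adjusted p = 0.0177); it stood at 110, 11.8, 17.8 and 38.4 CPM in skin, against 0, 27.0, 0 and 0 CPM in spleen (edgeR adjusted p = 0.985). Dnajb4, an inducible HSP40, stood at 140, 0, 98.9 and 128 CPM in skin, against 0, 0, 0 and 8.92 CPM in spleen (edgeR adjusted p = 0.682).

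The chaperonins gave 0 calls among 10 tested members in edgeR, 0 in DESeq2 and limma-voom, and 0 at an unadjusted edgeR p under 0.05. Of all genes tested, 5.43% were called by edgeR and 12.4% had an unadjusted p under 0.05, so among 10 genes a count of 0 does not set the chaperonins apart. Summed over Tcp1, Cct2, Cct3, Cct4, Cct5, Cct6a, Cct7 and Cct8, which encode the ring subunits of TRiC, the libraries held 3537, 3077, 2442 and 2623 CPM in skin, against 3134, 3183, 2937 and 3207 CPM in spleen. The sums overlapped and their means were 2920 ± 491 and 3115 ± 123 CPM (SD, n = 4 each). The subunits are built into the ring in equal number, yet within a skin library their transcripts moved apart. Cct3 stood at 1208, 484, 166 and 303 CPM in skin, against 584, 674, 669 and 508 CPM in spleen. Cct4 stood at 642, 539, 93.1 and 199 CPM in skin, against 223, 347, 235 and 333 CPM in spleen. Both were highest in skin replicate 1 and lowest in skin replicate 3, and the spleen libraries were closer together. Cct7 took the other course, at 263, 493, 805 and 271 CPM in skin, against 287, 346, 517 and 599 CPM in spleen.

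Cct5 stood at 494, 742, 663 and 558 CPM in skin, against 545, 547, 321 and 437 CPM in spleen, and Cct6a at 287, 251, 210 and 324 CPM in skin, against 150, 149, 188 and 295 CPM in spleen. Both ranged higher in skin but overlapped, with log2 fold changes of 0.41 (2 SE interval -0.10 to 0.91) and 0.46 (2 SE interval -0.32 to 1.23). Cct8 stood at 288, 426, 277 and 436 CPM in skin, against 595, 358, 599 and 552 CPM in spleen (log2 fold change -0.56; edgeR adjusted p = 0.526). Tcp1, the first TRiC subunit described, stood at 170, 141, 64 and 387 CPM in skin, against 504, 635, 166 and 333 CPM in spleen (log2 fold change -1.10; edgeR adjusted p = 0.616). These lay mostly lower in skin, again with overlap. Cct2 stood at 185, 0, 163 and 145 CPM in skin, against 246, 128, 242 and 150 CPM in spleen. The mitochondrial chaperonin Hspd1 stood at 108, 308, 301 and 154 CPM in skin, against 224, 248, 176 and 162 CPM in spleen (log2 fold change 0.11, 2 SE interval -0.82 to 1.03). Its lid Hspe1 stood at 7.27, 1.21, 46.0 and 60.2 CPM in skin, against 65.3, 74.8, 44.9 and 78.8 CPM in spleen. The pair shares a promoter and did not run in parallel in skin, where replicate 2 held the most Hspd1 and the least Hspe1.

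**Figure D3:**
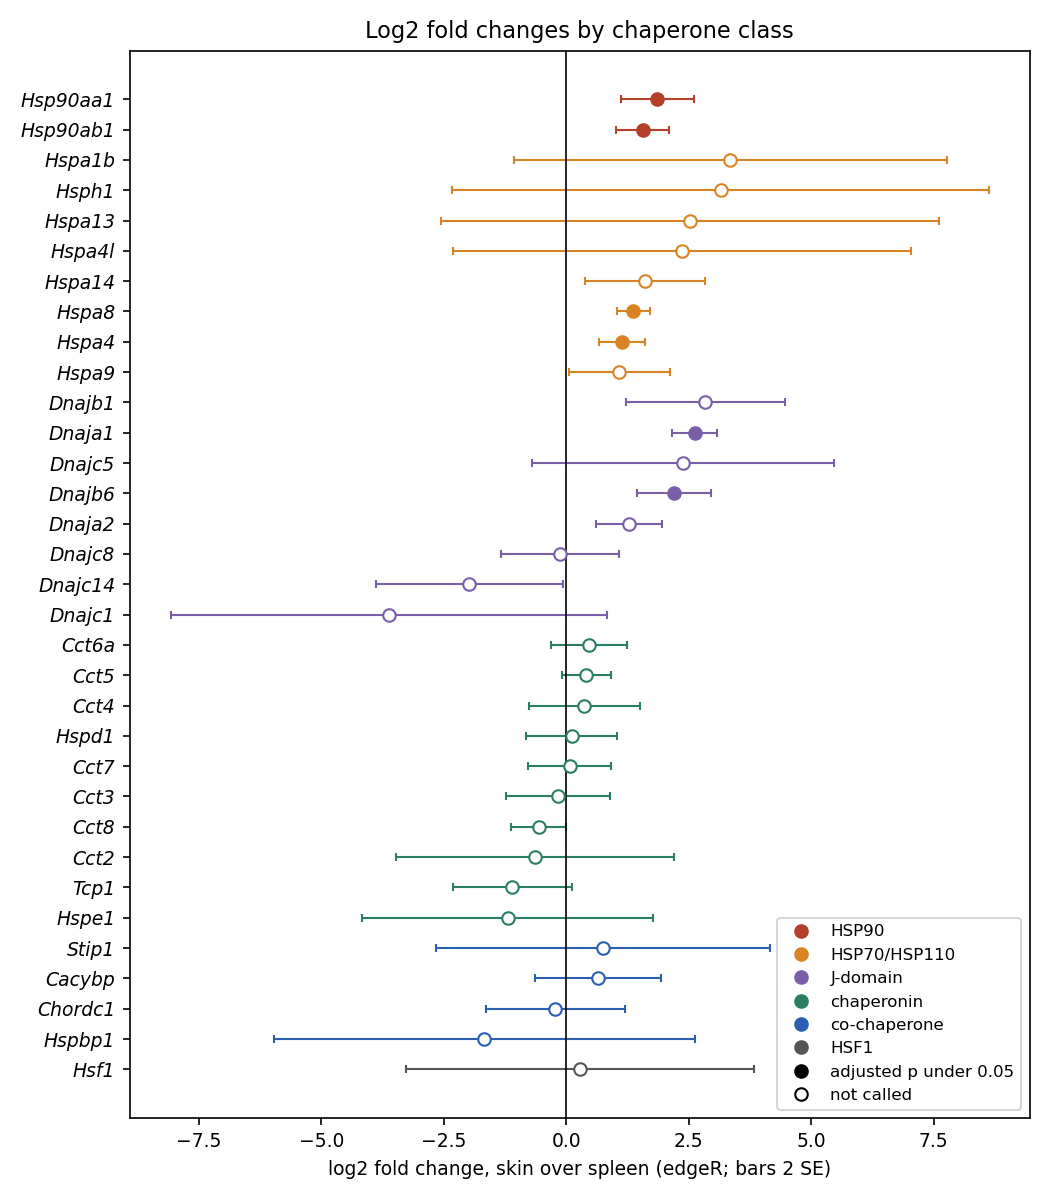
Log2 fold change of skin over spleen for the named tested members with a count in both tissues, by class, with bars of 2 SE from edgeR. Filled points (Hsp90aa1, Hsp90ab1, Hspa8, Hspa4, Dnaja1 and Dnajb6) passed an adjusted p of 0.05, and the chaperonin points lie on both sides of 0.

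None of the 4 tested co-chaperones among the members, which link or regulate HSP70 and HSP90, was called by edgeR, DESeq2 or limma-voom. At an unadjusted edgeR p under 0.05, 0 passed. Over all genes tested these shares were 5.43% by edgeR and 12.4% unadjusted, so 0 of 4 does not set the co-chaperones apart. Stip1, which holds HSP70 and HSP90 together, stood at 536, 387, 4.43 and 0 CPM in skin, against 143, 52.8, 229 and 127 CPM in spleen. Skin thus held both the highest and the lowest values (log2 fold change 0.75, 2 SE interval -2.67 to 4.18; edgeR adjusted p = 0.998), and limma-voom and the replicate block gave it the opposite sign. Cacybp, an adaptor of ubiquitin ligases that binds HSP90, stood at 136, 259, 391 and 63.7 CPM in skin, against 72.2, 130, 161 and 177 CPM in spleen. Chordc1, a co-chaperone of HSP90, stood at 97.9, 58.0, 182 and 100 CPM in skin, against 138, 146, 114 and 112 CPM in spleen. Hspbp1, an exchange factor of HSP70, stood at 62.8, 91.2, 0 and 0 CPM in skin, against 27.9, 110, 236 and 117 CPM in spleen. All 4 overlapped between the tissues. Hsf1 itself stood at 51.8, 26.3, 46.2 and 114 CPM in skin, against 0, 52.5, 57.0 and 87.0 CPM in spleen (log2 fold change 0.28, 2 SE interval -3.28 to 3.84; edgeR adjusted p = 0.998). This interval does not show whether Hsf1 transcript differed.

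The 15 members below the filter never exceeded 248 CPM, and 14 of them had a count in at most 3 libraries. Of the 15, 2 had counts in skin only, 8 in spleen only and 5 in both. Skin libraries had fewer genes with a count in general. The same split over all genes below the filter was not computed, so these numbers describe no trait of the members. Hspb1, a small heat shock protein that keeps unfolded proteins soluble, stood at 32.5, 52.2, 108 and 0 CPM in skin and at 0 in all spleen libraries. Hspa2, an HSP70 best known from the testis, stood at 17.9, 0, 248 and 65.7 CPM in skin and at 0 in all spleen libraries. Fitted with no filter, neither passed (edgeR adjusted p = 0.206 and 0.191). Both were highest in skin replicate 3. Keratinocyte markers summed to 956, 334, 1070 and 273 CPM in skin libraries 1 to 4 and were highest in the same library; their part in these values was not tested. Bag3, an inducible partner of HSP70 and Hspb proteins, was nearly absent, at 0, 0, 1.14 and 0 CPM in skin and 0, 0, 0.143 and 0.446 CPM in spleen. Hspb6 and Hspb11, the latter grouped with Hspb1 by symbol alone, had a count in 1 spleen library each. The members counted in spleen alone were these 2, Dnajb2, Dnajb14, Dnajc25, Dnajc27, Hspbap1 and Cct6b, at no more than 37.1 CPM. Dnajb12, Dnajb13 and Dnajc10 were counted in both tissues.

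**Figure D4:**
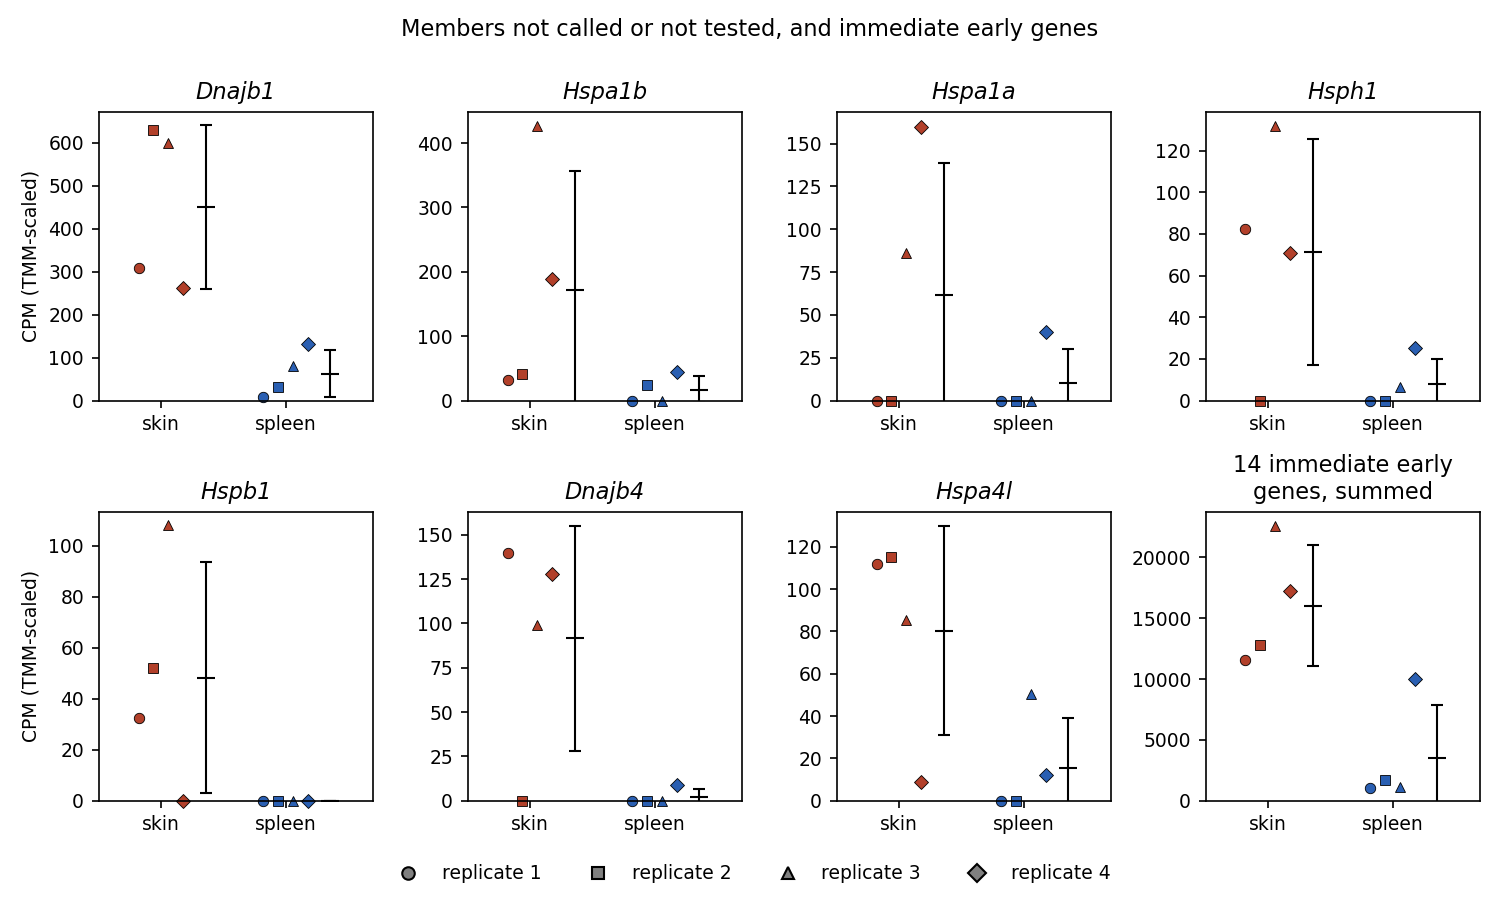
CPM of 7 members that were not called or not tested, and the summed CPM of 14 immediate early genes, in skin (red) and spleen (blue) libraries, with the mean and SD (n = 4 each, cut at 0) in black. Dnajb1 does not overlap between the tissues, and Hspa1b is highest in skin replicate 3. Spleen replicate 4 has the highest spleen value of Dnajb1, Hspa1a, Hspa1b, Hsph1, Dnajb4 and the immediate early sum. Hspa4l is highest within spleen in replicate 3, and Hspb1 is at 0 in all spleen libraries.

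Further partners of this network were 48 genes listed by role, with earlier results of these data known. They were other heat shock factors, HSP70 and HSP90 co-chaperones, prefoldin and helpers of TRiC. In edgeR 0 of 39 tested were higher and 1 lower, against 1.85% and 3.58% of all genes tested. This count was near that background, and 38 of the partners did not pass. DESeq2 and limma-voom called 0 of them higher too, as did edgeR at an unadjusted p under 0.05, which 5.1% of all genes tested passed upwards. The lower one was Bag5, an exchange factor of HSP70, with no count in skin and 132, 88.8, 67.6 and 71.8 CPM in spleen (edgeR adjusted p = 0.0473); this call was lost in each of the 8 fits without 1 library. Tomm34, which binds HSP70 and HSP90 on the way to mitochondria, stood at 404, 477, 556 and 743 CPM in skin, against 0, 201, 102 and 257 CPM in spleen. It did not overlap and was not called (edgeR adjusted p = 0.838). Aarsd1 stood at 0, 0, 47.3 and 0 CPM in skin, against 58.4, 120, 77.2 and 48.9 CPM in spleen, without a call in edgeR (adjusted p = 0.985), while limma-voom called it lower (log2 fold change -7.39, adjusted p = 0.049). Cdc37, which brings kinases to HSP90, stood at 859, 656, 418 and 371 CPM in skin, against 536, 429, 494 and 466 CPM in spleen. Fkbp8 stood at 395, 459, 291 and 113 CPM in skin, against 417, 136, 236 and 333 CPM in spleen. Bag1 stood at 633, 237, 191 and 247 CPM in skin, against 349, 192, 167 and 245 CPM in spleen. These 3 overlapped between the tissues. The median log2 fold change of the 39 was -0.19, beside -0.29 over all 6920 genes tested.

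The calls differed in how often they held with 1 library left out. Over all genes tested, the higher calls fell from 128 to between 47 and 102 in these fits. A lost call therefore does not show that it rested on the library left out. Of the 376 calls in either direction with all 8 libraries, 253 had an edgeR adjusted p of 0.04 to 0.05, close to the threshold. Hspa4, Hsp90aa1, Dnajc24 and Dnajc30 were among these. Dnaja1 and Hspa8 were called in each of the 8 fits without 1 library, with log2 fold changes of 2.46 to 2.74 and 1.21 to 1.45. Dnajb6 was called in 3 of the 8 fits, being lost without skin replicates 1 or 2 or spleen replicates 1, 3 or 4. Hsp90ab1 was called in 2 of them, those without skin replicate 1 and without skin replicate 4. Hsp90aa1 was called in 1, that without skin replicate 4, and Hspa4 in 0. The sizes moved little: 1.95 to 2.36 for Dnajb6, 1.34 to 1.69 for Hsp90ab1, 1.64 to 2.04 for Hsp90aa1 and 1.04 to 1.21 for Hspa4. Without spleen replicate 4, the library apart in immediate early genes, the log2 fold changes were 2.74 for Dnaja1, 1.45 for Hspa8, 2.22 for Dnajb6, 1.97 for Hsp90aa1, 1.56 for Hsp90ab1 and 1.12 for Hspa4, and 2 of the 6 were called, Dnaja1 and Hspa8.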

How the data were processed

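RNA of skin and spleen iNKT cells was converted with a full-length low-input kit that does not mark strand (SMART-Seq v4) and read as 75 bp pairs, per the labels' protocols. The authors deposited gene-level expected counts from RSEM, per the submitters' processing notes, which also name FastQC, DESeq2 1.16.1 and build mm9. Neither aligner nor annotation was given in the sources used here. RSEM shares reads between similar genes, so near-identical pairs and genes with processed pseudogenes (Hspa1a and Hspa1b, Hspa8, Hsp90ab1, Hspe1) are uncertain, as are overlapping and antisense genes.

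Expected counts were rounded and fitted in R 4.3.3 with edgeR 4.0.16 (limma 3.58.1 for voom), using filterByExpr (6920 of 22549 genes), TMM, robust glmQLFit and glmQLFTest with tissue as the only term, and Benjamini-Hochberg at 0.05. The common dispersion was 2.94. The SE is the log2 fold change divided by the square root of F. A floor of 3 counts is 0.292 to 0.454 CPM per library and covers counting error only, as reads carry no molecular identifiers. No libraries agreed within sampling noise (smallest chi-square per degree of freedom 112). On counts simulated with the estimated spread the fit missed most changed genes and made almost no false calls, so a gene without a call may still differ. The simulated libraries were drawn independently, so the rarity of false calls holds for that setting only.

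Members and lists were chosen with earlier results of these data known. Named were all called members, all tested members outside the J-domain class, and J-domain genes that were called, did not overlap or were among the 6 with highest mean CPM; for the further partners, those called, not overlapping or among the 4 highest. Hspa1a, Hspa2, Hspb1, Bag3, Dnajb4 and the other members named beyond this were chosen after their values were seen. Likeness of member profiles across libraries was not computed, because the tissues form separate clusters of 4. Alternatives were RLE and upper-quartile scaling, no filter, a filter of 5 CPM in 4 libraries, genes counted in 3 libraries of each tissue, DESeq2 1.42.0, limma-voom with quality weights, the replicate block and each library left out.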

Additional observations from a re-analysis of the deposited data

Results flagged for a closer look

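Among 82 sets of 4 libraries of named genes, 3 held a library far from the others, where chance flags about 1 in 20. Hspa4 stood at 531 CPM in skin replicate 1, below the other skin libraries, which lay close together. Bag1 stood at 633 CPM in skin replicate 1, above the other skin libraries. Aarsd1 stood at 47.3 CPM in skin replicate 3 and at 0 in the other skin libraries.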

How the results depend on the processing

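Over all genes tested, 128 were higher and 248 lower in skin. The counts were 295 and 447 with DESeq2 and 207 and 500 with limma-voom. No filter left 48 lower, and genes counted in 3 libraries of each tissue left 42 lower. Leaving out 1 library gave 47 to 102 higher and 17 to 111 lower. The replicate block gave 36 and 14. Same-numbered libraries deviated together with correlations of only 0.00175 to 0.0105, and 2 of 8 libraries correlated best with their own number. Libraries of unlike number correlated weakly too (-0.027 to 0.0435), so these values cannot show whether same-numbered libraries are paired. The labels do not state it. Of the members, 6 were higher and 2 lower. The replicate block left 2 higher and 0 lower, leaving out 1 library 2 to 6 higher and 0 lower, and both no filter and detection in each tissue 0 lower. Under the replicate block Hsp90ab1 and Dnaja1 kept their calls. RLE scaling gave 7 higher, DESeq2 8, limma-voom 9 and no filter 5. Bag5 was the 1 lower further partner. That count was 2 with limma-voom (Bag5 and Aarsd1), 0 under the replicate block, with no filter or with detection in each tissue, and 0 to 1 without 1 library. The heat shock element was found in 18 members with 2 units. No called member changed sign. Uncalled values crossed 0 for Cct4 (-0.13 with limma-voom, -0.07 to 0.64 without 1 library), Cct7 (-0.19 with limma-voom, -0.02 under the block, -0.39 to 0.26 without 1 library), Stip1 (-3.19, -2.16 and -0.11 to 1.12) and Hspd1 (0.00 under the block, -0.14 to 0.30). Without 1 library Cct3 ranged from -0.97 to 0.07, Dnajc8 from -0.47 to 0.17, Hsf1 from -0.28 to 0.70, Bag1 from -0.11 to 0.69, Cdc37 from -0.03 to 0.38 and Fkbp8 from -0.12 to 0.41. The cause of these shifts was not tested. Limma-voom lowered the median log2 fold change of all genes by 1.55 against edgeR, so its signs are relative to that shift. Values of 0 were frequent in skin among genes at 20 to 35 CPM, well above the floor of 3 counts, and their cause was not tested.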

Other observations

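In skin libraries 1 to 4, 20%, 24%, 24% and 10% of the 50 tested members were at 0, beside 32.6%, 32.4%, 26.3% and 26.1% of all genes tested. In spleen libraries 1 to 4, 28%, 10%, 6% and 2% of the members were at 0, beside 22.4%, 17.4%, 4.83% and 0.78% of all genes. Spleen replicate 1 thus held more members at 0 than any skin library. Without Hspa8 and Hsp90ab1, which have the most counts, the members summed to 12910, 13990, 12260 and 10460 CPM in skin, against 6705, 7200, 7579 and 7943 CPM in spleen.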
